A study of Mus musculus with 24 samples.

Results

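Radial glia are the neural stem cells that line the ventricle of the embryonic cortex, and intermediate progenitors are the dividing cells they give rise to on the way to glutamatergic neurons. RNA-seq counts of these populations were compared in normal mouse cortex: 4 libraries of TBR2+ cells, labelled as intermediate progenitors, against 4 libraries of PAX6+ cells, labelled as radial glia. These 8 libraries were chosen by their titles, out of 24 in the series. All came from cells sorted from E15.5 cortex (E, embryonic day) and are called WT, although their genotype is Prdm16 flox/flox, with the floxed alleles and no Cre. The same step was also measured in KO cells, 4 TBR2+ and 4 PAX6+ libraries of Emx1Ires-Cre; Prdm16flox/flox cortex, in which Cre is driven from the Emx1 locus of the dorsal telencephalon. WT PAX6-TBR2- cells, described as neurons and also in 4 libraries, served for genes followed further along the lineage.

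Radial glia keep an apical contact with the ventricle and a basal process to the pial surface. They hold themselves in the stem cell state largely through Notch signalling: a neighbour that displays a Delta-type ligand activates Notch receptors, and the receptor's released intracellular domain joins the DNA-binding protein RBPJ to switch on Hes genes, whose products repress proneural bHLH genes. A daughter cell that escapes this repression raises Neurog2, then Eomes (the gene of TBR2), leaves the apical surface, divides a limited number of times in the subventricular zone and makes neurons. PAX6 is a paired-box transcription factor of radial glia, and Neurod, Tbr1 and related factors act as neurons form.

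The WT TBR2+ libraries held 6.42 to 7.6 M counts and 18406 to 19641 genes with counts, and the WT PAX6+ libraries 7.75 to 12.6 M counts and 20011 to 21670 genes. The share of counts from the mitochondrial genome was 24.7% to 33.1% in TBR2+ and 14.4% to 20.2% in PAX6+ libraries, most of it mitochondrial ribosomal RNA. Whole reads recovered from the authors' deposited normalized values came to 9.49 to 11.2 M per TBR2+ library, more than these counts, and equalled the counts in every PAX6+ library. The TBR2+ counts thus do not hold all of these reads, and why was not tested. The recovered reads gave 8909 called genes, 8421 of them among the 8570 called from the counts. Library identifiers carry 1 prefix per population, so population cannot be told apart from library preparation and sequencing, and this touches every difference given here. The series calls the replicates biological, but the labels do not tie them to embryos or litters, so the p-values measure the spread between these libraries. The labels do not say whether the PAX6+ gate excluded TBR2+ cells. Levels are in CPM, that is, counts over library size after TMM scaling, log2 fold changes are TBR2+ over PAX6+ with their standard error (SE), and p-values are adjusted over all genes tested in edgeR's two-sided quasi-likelihood test.

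The genes of the sorting antigens were examined first, as a check of the sort and not as a result. Eomes (ENSMUSG00000032446; GRCm38 chromosome 9, 118478212 to 118486132, plus strand) had 1078, 927, 1044 and 905 CPM in TBR2+ cells, against 64.6, 82.2, 115 and 64.8 CPM in PAX6+ cells (log2 fold change 3.59, SE 0.16, adjusted p = 4.19e-12). Its TBR2+ libraries all lay far above the PAX6+ libraries, which still held Eomes RNA. Pax6 (ENSMUSG00000027168; GRCm38 chromosome 2, 105668900 to 105697364, plus strand) had 317, 266, 239 and 204 CPM in TBR2+ cells, against 461, 478, 473 and 415 CPM in PAX6+ cells (log2 fold change -0.83, SE 0.12, adjusted p = 8.94e-06). The groups did not overlap, but TBR2+ cells kept more than a trace of Pax6 RNA, at 257 CPM on average against 457 CPM in PAX6+ cells. In sorted bulk samples like these, fewer cells that express a gene and less RNA of it per cell cannot be told apart.

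A large part of the genes tested differed between the TBR2+ and PAX6+ libraries. Of 13550 genes tested, 4202 were higher (31%) and 4368 lower (32.2%) in TBR2+ cells at an adjusted p under 0.05, or 63.2% in either direction, and in 57.4% the 4 libraries of one population lay on 1 side of those of the other. With a fitted fold of at least 2 as well, 1925 genes were higher (14.2%) and 2293 lower (16.9%). The median log2 fold change over all genes was -0.02. These shares are the background against which every list count below is to be read.

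The largest rises included genes of glutamatergic neuron differentiation, secretion and excitability. Neurod1, a proneural bHLH factor, had 351, 338, 419 and 407 CPM in TBR2+ cells, against 1.57, 1.37, 2.24 and 0.746 CPM in PAX6+ cells (log2 fold change 7.92, SE 0.19, adjusted p = 8.19e-15). Neurod6, a later bHLH factor of the same family, had 1051, 1081, 1373 and 1272 CPM in TBR2+ cells, against 10.5, 5.91, 8.96 and 7.14 CPM in PAX6+ cells (7.20, SE 0.17). Slc17a6, which encodes the vesicular glutamate transporter VGLUT2, had 352, 364, 340.3 and 312 CPM in TBR2+ cells, against 1.66, 0.720, 4.35 and 1.39 CPM in PAX6+ cells (7.32, SE 0.28). For all 3 genes the TBR2+ libraries were alike and the PAX6+ libraries sat near the bottom of the scale. Rbfox3, the splicing regulator known as NeuN and widely used as a marker of neurons, had 448, 459, 357 and 413 CPM in TBR2+ cells, against 3.42, 2.30, 6.92 and 1.92 CPM in PAX6+ cells (6.78, SE 0.25). Prdm8, a PR domain transcription regulator, had 187, 171, 187 and 269.7 CPM in TBR2+ cells, against 1.11, 0.936, 1.12 and 0.746 CPM in PAX6+ cells (7.66, SE 0.20). PAX6+ replicate 3 was the highest PAX6+ library for Slc17a6 and Rbfox3 (without it, Slc17a6 had a log2 fold change of 8.12), and TBR2+ replicate 4 was the highest TBR2+ library for Prdm8.

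Chga, which encodes chromogranin A of dense-core granules, averaged 106 ± 9.04 against 0.611 ± 0.329 CPM in TBR2+ and PAX6+ cells (SD, n = 4 each). The other genes named by size of change were Clvs1, a lipid-binding protein of clathrin-coated vesicles (7.30, or 8.19 without PAX6+ replicate 3), Cemip, a protein of hyaluronan breakdown (7.04), the somatostatin receptor gene Sstr3 (6.87), the calcium sensor gene Hpca (6.60), Fam160a1 (6.57) and the noncoding Plxna4os2 (6.72). Plxna4os2 lies within Plxna4 on the opposite strand, and because the strand setting of the counting is not known, reads of the pair cannot be told apart. The channel and junction genes Kcng1 (a modulatory potassium channel subunit), Gjd2 (the neuronal gap junction protein connexin 36) and Cldn3 (a claudin of tight junctions) were almost unseen in PAX6+ cells: they held 652, 292 and 238 reads over the TBR2+ libraries, against 2, 1 and 2 reads over the PAX6+ libraries, too few for a fold. Kcng1 had 31.8, 24.7, 23.4 and 33.3 CPM in TBR2+ cells.

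The largest falls included genes of the matrix, the cell surface and signalling. Tnc, which encodes the matrix glycoprotein tenascin C, had 10.01, 4.36, 6.25 and 4.66 CPM in TBR2+ cells, against 397, 241, 556 and 372 CPM in PAX6+ cells (log2 fold change -5.94, SE 0.27, adjusted p = 4.19e-12). Ednrb, the endothelin receptor B, had 2.10, 2.79, 1.95 and 1.03 CPM in TBR2+ cells, against 81.6, 87.3, 100.2 and 92.8 CPM in PAX6+ cells (-5.51, SE 0.18). Both genes were far lower in every TBR2+ library than in any PAX6+ library. Pdpn, the surface mucin podoplanin, had 1.94, 0.174, 1.56 and 0.517 CPM in TBR2+ cells, against 42.5, 37.6, 48.1 and 35.5 CPM in PAX6+ cells (-5.27, SE 0.29), and Sall3, a zinc finger transcription factor, had 5.33, 3.66, 3.32 and 2.59 CPM in TBR2+ cells, against 145, 107, 215 and 124 CPM in PAX6+ cells (-5.29, SE 0.25). The PAX6+ libraries spread widely for Tnc and Sall3, with replicate 3 highest and replicate 2 lowest in each.

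Other large falls were those of the secreted protein gene Ccdc80 (-5.51), the bHLH repressor gene Bhlhe40 (-5.24), the sorting receptor gene Sorcs1 (-5.68), Lipg, a lipase (-5.39), Alpl, an alkaline phosphatase (-5.22), Cd109, a TGF-beta co-receptor (-5.35), Lair1, a collagen-binding receptor otherwise known from immune cells (-5.86), and Eva1c (-5.20, or -6.07 without TBR2+ replicate 2). The noncoding genes Sox1ot, which overlaps Sox1 (-5.84), and Pvt1 (-5.37) fell as well. Non-overlap of the libraries was part of the rule by which genes were named for size of change, so it adds nothing for them.

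**Figure D1:**
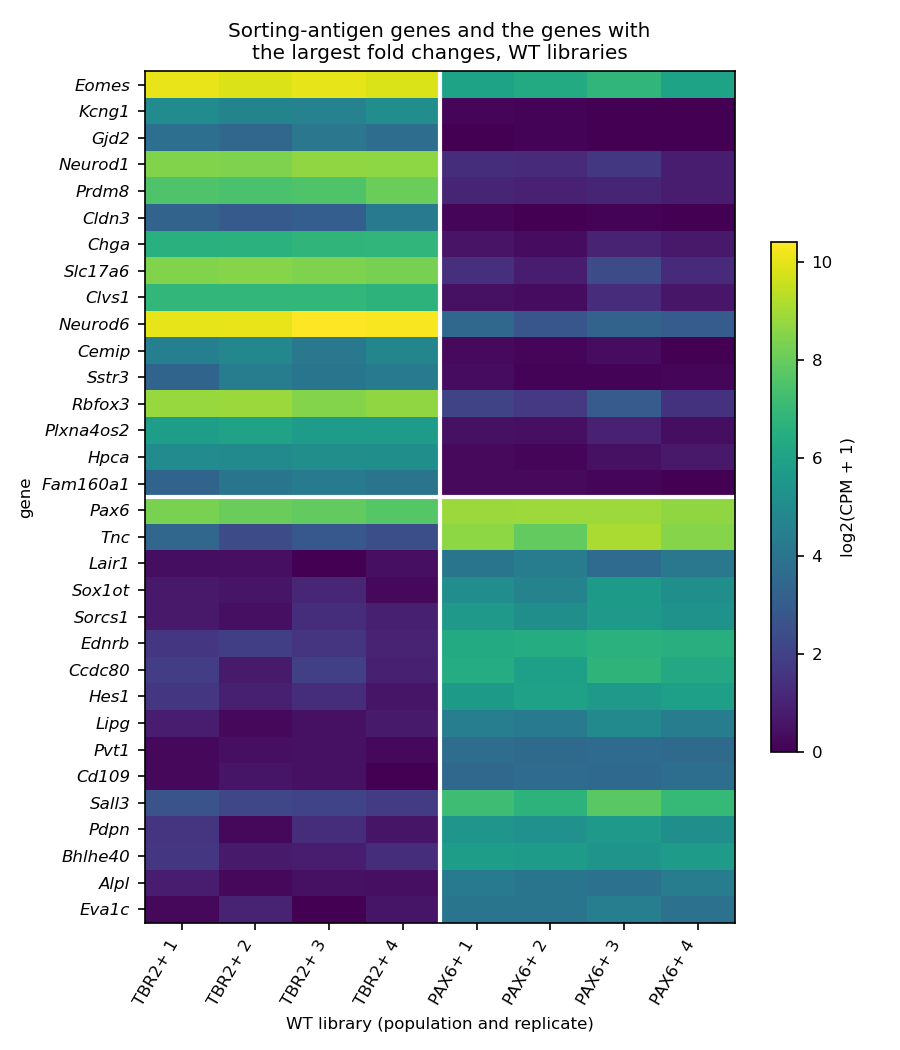
Level of the sorting-antigen genes Eomes and Pax6 and of the 15 genes with the largest fitted change in each direction, in each WT library, as log2(CPM + 1) in colour; columns are the 4 TBR2+ and then the 4 PAX6+ libraries. Eomes and the genes that rose fill the upper block and Pax6 and the genes that fell the lower block. The change of Pax6 (-0.83 in log2 fold change) is small beside those of the genes under it (-5.94 to -5.20).

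Nearly all genes of the radial glia list fell at this step, and nearly all tested genes of the intermediate progenitor list rose. Of 24 radial glia genes, all tested, 23 were lower and 0 higher, with a median log2 fold change of -3.50, against 32.2% of all genes lower. The exception, the glutamine synthetase gene Glul, was not called. Summed over the list, the level was 1275, 1042, 1070 and 957 CPM in TBR2+ libraries against 7574, 7116, 8092 and 7816 CPM in PAX6+ libraries. Mfge8, a secreted phosphatidylserine-binding protein, had 5.81, 1.22, 5.47 and 0.862 CPM in TBR2+ cells, against 96, 71.9, 128 and 88.4 CPM in PAX6+ cells (log2 fold change -4.85, SE 0.32, adjusted p = 6.19e-10). Ddah1, an enzyme that degrades methylated arginine, averaged 18.6 ± 7.42 against 549.6 ± 71.3 CPM (-4.88, SE 0.21). Sox2, the stem cell transcription factor, had 39.4, 28.9, 27.6 and 19.5 CPM in TBR2+ cells, against 111, 120.4, 115 and 89.6 CPM in PAX6+ cells (-1.92, SE 0.16). Its fall was partial, with every TBR2+ library keeping at least 19.5 CPM.

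Of 20 intermediate progenitor genes, 19 could be tested, and 18 were higher and 0 lower in TBR2+ cells, with a median of 3.28, against 31% of all genes higher. Nhlh1, a neuronal bHLH factor, had 251, 279, 218 and 258 CPM in TBR2+ cells, against 3.51, 2.59, 5.07 and 2.45 CPM in PAX6+ cells (log2 fold change 6.17, SE 0.18, adjusted p = 3.07e-14). Kif26b, an atypical kinesin, averaged 238 ± 16.3 against 3.55 ± 1.11 CPM (6.04, SE 0.16), and the somatostatin receptor gene Sstr2 averaged 232 ± 21.2 against 5.03 ± 0.876 CPM (5.51, SE 0.14), each as TBR2+ against PAX6+ means (SD, n = 4 each). These genes were present in PAX6+ cells at a low but measurable level. Insm1, a zinc finger factor that promotes the formation of basal progenitors, had 225, 155, 218 and 186 CPM in TBR2+ cells, against 56, 66.8, 69.7 and 53.7 CPM in PAX6+ cells (1.67, SE 0.13, or 1.08 with the length and GC trend removed and a replicate block). Neurog2, the proneural factor upstream of Eomes, had 360.1, 268, 347 and 271 CPM in TBR2+ cells, against 89.9, 133, 143 and 114 CPM in PAX6+ cells (1.37, SE 0.14). Both genes had reads in every PAX6+ library, and the groups did not overlap. The lists include the genes of the sorting antigens, Pax6 and Eomes; without them, 22 of 23 radial glia genes were lower and 17 of 18 intermediate progenitor genes higher.

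Notch pathway genes were split by role. All 4 receptor genes fell, the strongly changed effectors fell, most ligands rose, and the fringe enzymes, which add sugars to Notch and so tune its response to ligands, moved in opposite directions. Among the ligands, 4 of 6 tested were higher and 1 lower. Dll1, the main Delta-type ligand of neurogenesis, had 101, 99.3, 56.7 and 59.6 CPM in TBR2+ cells, against 40.7, 57.2, 56.7 and 49.4 CPM in PAX6+ cells (log2 fold change 0.64, SE 0.18, adjusted p = 0.0044), and TBR2+ replicates 3 and 4 lay at the level of the highest PAX6+ libraries. Dll3, a divergent Delta family member known to act within the cell rather than as an activating ligand, had 15.3, 13.1, 9.18 and 14.8 CPM in TBR2+ cells, against 1.11, 1.15, 0.922 and 0.426 CPM in PAX6+ cells (3.81, SE 0.29). Dll4 averaged 3.78 ± 0.964 against 0.442 ± 0.366 CPM (2.96, SE 0.44). Dll3 and Dll4 were near the floor in PAX6+ cells, whereas Dll1 was present in both populations. Without PAX6+ replicate 3 the log2 fold change of Dll4 was 3.76. Dner, a Delta-like surface protein, rose by 1.42 (SE 0.30). Jag1, a Jagged-type ligand, fell, with 5.33, 4.01, 2.73 and 4.48 CPM in TBR2+ cells, against 11.5, 10.7, 19.6 and 12.4 CPM in PAX6+ cells (-1.70, SE 0.25). Jag2 was at 3.40 against 2.34 CPM (TBR2+ against PAX6+ means) and was not called (0.54, SE 0.29, adjusted p = 0.11).

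The receptor genes were lower in every TBR2+ library than in any PAX6+ library. Notch1 had 136, 146, 125 and 99.8 CPM in TBR2+ cells, against 570.5, 518, 606 and 404 CPM in PAX6+ cells (log2 fold change -2.05, SE 0.14, adjusted p = 6.41e-10). Notch2 had 42.8, 34, 37.9 and 29.1 CPM in TBR2+ cells, against 809.8, 701, 953 and 729 CPM in PAX6+ cells (-4.47, SE 0.14). Notch3 had 8.39, 6.27, 4.88 and 3.45 CPM in TBR2+ cells, against 110, 90.5, 119 and 66.2 CPM in PAX6+ cells (-4.06, SE 0.23). The fall of Notch1 was thus the shallowest of these 3. Notch4, mainly known from endothelium, was low in both populations, at 2.09 against 4.95 CPM (-1.23, SE 0.29).

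Among effectors, 3 of 9 tested were higher and 5 lower. Hes1, the repressor that Notch switches on in radial glia, had 2.10, 0.871, 1.56 and 0.517 CPM in TBR2+ cells, against 49.9, 61.8, 47.4 and 57.3 CPM in PAX6+ cells (log2 fold change -5.40, SE 0.23, adjusted p = 2.34e-12). Hes5, the other main Hes target in the cortex, had 8.39, 9.58, 8.79 and 5.34 CPM in TBR2+ cells, against 50.04, 56.5, 61.8 and 60.6 CPM in PAX6+ cells (-2.83, SE 0.16). Hes1 RNA was thus almost lost, whereas Hes5 remained readable in every TBR2+ library. Of the related Hey repressors, Hey2 fell to 3.81 CPM in TBR2+ cells, against 11.3 CPM in PAX6+ cells (-1.56, SE 0.29), and Hey1 fell by far less (83.2 against 122 CPM; -0.55, SE 0.12). Nrarp, a feedback inhibitor induced by Notch, had 48.9, 39.7, 58.4 and 50 CPM in TBR2+ cells, against 56.9, 58.9, 66.3 and 53.2 CPM in PAX6+ cells and was not called (-0.26, SE 0.12, adjusted p = 0.0733). It was near the threshold, and in 5 of 21 alternative settings it was called lower. The nuclear partners did not fall as a group: Rbpj (0.60) and the coactivator genes Maml1 (0.51) and Maml3 (0.61) rose slightly, and Maml2 fell (-1.36).

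Lfng, lunatic fringe, had 2.42, 1.74, 0.977 and 0.172 CPM in TBR2+ cells, against 54.6, 52.2, 48.9 and 43 CPM in PAX6+ cells (log2 fold change -5.19, SE 0.27, adjusted p = 2.67e-11). Its relative Mfng, manic fringe, had 228, 210.3, 198 and 191 CPM in TBR2+ cells, against 21.5, 22.8, 34.3 and 20.4 CPM in PAX6+ cells (3.05, SE 0.15). Each was high where the other was low, and the groups were far apart in both. Rfng, radical fringe, rose modestly (0.73). Numbl, a relative of the Notch antagonist Numb, had 118, 120, 116 and 121 CPM in TBR2+ cells, against 36.9, 27.9, 35.9 and 26.1 CPM in PAX6+ cells (1.90, SE 0.12), whereas Numb itself was at 52.1 against 57.7 CPM and was not called (-0.14, SE 0.11). Pofut1, which fucosylates Notch, fell by 0.48 on the log2 scale, the ubiquitin ligase gene Neurl1b fell (-1.28) and Adam10, a protease that cleaves Notch, rose (0.51). Mib1, the ligase that activates ligands, was at 211 against 209 CPM and, like the gamma-secretase gene Psenen, was not called. With a fold of 1.5 as the tested threshold in place of 0 change, Dll1, Rbpj, Maml1, Maml3, Hey1, Rfng, Adam10 and Pofut1 would not have been called.

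**Figure D2:**
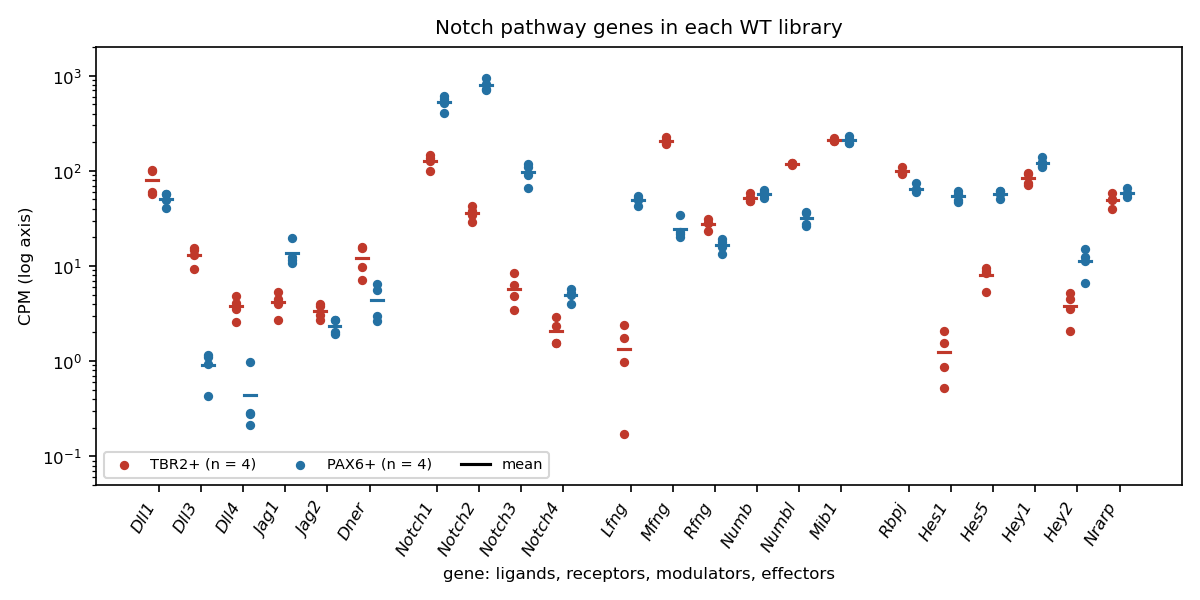
CPM (log axis) of Notch pathway genes in each WT library, grouped as ligands, receptors, modulators and effectors; points are libraries, bars are means, with TBR2+ left of PAX6+ for each gene. Receptors, Lfng and Hes1 are lower in all TBR2+ libraries, and Mfng, Dll3 and Numbl are higher; Numb, Mib1 and Nrarp overlap.

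Promoter windows are shown for Notch genes called in each direction, Hes5 and Lfng among those that fell and Dll1 and Dll3 among those that rose. Of the ligands called higher, Dll1 rose by the least. Windows run from 250 bases before to 50 bases after the annotated start, from RefSeq on GRCm38.p6. Hes5 lies at chr4:154960673-154960972 on the plus strand, Lfng at chr5:140607091-140607390 on the plus strand, Dll1 at chr17:15376883-15377182 on the minus strand and Dll3 at chr7:28301736-28302035 on the minus strand. In the windows of Hes5 and Lfng the letters TGGGAA, the core that RBPJ binds, are in capitals on either strand (TTCCCA on the other). In those of Dll1 and Dll3 the capitals mark CAGNTG, the E-box letters of bHLH factors such as NEUROG2. Lfng and Dll3 were added after their values had been seen.

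Hes5: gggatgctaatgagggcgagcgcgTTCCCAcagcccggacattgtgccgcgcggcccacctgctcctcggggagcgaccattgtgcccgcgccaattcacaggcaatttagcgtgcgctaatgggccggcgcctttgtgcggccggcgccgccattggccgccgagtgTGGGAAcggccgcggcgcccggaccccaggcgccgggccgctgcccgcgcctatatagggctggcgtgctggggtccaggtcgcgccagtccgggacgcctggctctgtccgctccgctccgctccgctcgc
Lfng: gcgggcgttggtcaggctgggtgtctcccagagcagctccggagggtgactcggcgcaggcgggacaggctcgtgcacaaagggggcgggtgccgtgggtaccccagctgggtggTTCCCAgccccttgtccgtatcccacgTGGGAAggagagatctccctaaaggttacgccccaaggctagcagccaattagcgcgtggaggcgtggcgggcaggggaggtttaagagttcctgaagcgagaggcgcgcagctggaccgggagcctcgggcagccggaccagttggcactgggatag
Dll1: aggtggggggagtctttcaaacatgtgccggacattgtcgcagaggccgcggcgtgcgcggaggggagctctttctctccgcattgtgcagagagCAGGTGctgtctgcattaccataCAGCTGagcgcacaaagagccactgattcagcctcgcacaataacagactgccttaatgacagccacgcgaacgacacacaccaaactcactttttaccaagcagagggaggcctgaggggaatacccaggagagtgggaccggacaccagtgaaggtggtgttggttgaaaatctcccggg
Dll3: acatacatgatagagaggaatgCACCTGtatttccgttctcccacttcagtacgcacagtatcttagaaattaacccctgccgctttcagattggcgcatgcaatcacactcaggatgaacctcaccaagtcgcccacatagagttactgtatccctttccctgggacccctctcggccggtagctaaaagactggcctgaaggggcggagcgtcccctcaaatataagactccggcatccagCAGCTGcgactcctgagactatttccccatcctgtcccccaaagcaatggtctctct

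The Hes5 and Lfng windows each hold 2 matches to TGGGAA, and the Dll1 and Dll3 windows 2 matches to CAGNTG each and 0 to TGGGAA. The windows of Hes5 and Lfng also hold CAGNTG, at 1 and 3 places that are not in capitals above. The windows of Neurog2, Eomes and Sox2 hold neither, and no window was given for Hes1. These letters are common: TGGGAA was in 20.3% of the windows of the genes that rose at least 2-fold, 24.5% of those that fell at least 2-fold and 22.4% of all genes tested. CAGNTG was in 49.8%, 45% and 42.5% of the same sets, of 1329, 1599 and 9898 windows. The motifs do not overlap in letters, and a match describes the sequence and not a bound site.

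Followed into PAX6-TBR2- cells, the lineage genes had peaks at different populations. On a scale set over the 12 WT libraries, Hes5 was at 55.3 ± 5.20 CPM in PAX6+, 7.65 ± 1.74 CPM in TBR2+ and 2.35 ± 0.876 CPM in PAX6-TBR2- cells (SD, n = 4 each), and Sox2 at 105 ± 12.9 CPM in PAX6+, 27.5 ± 7.70 CPM in TBR2+ and 20.9 ± 8.07 CPM in PAX6-TBR2- cells. These were highest in PAX6+ cells. Eomes was at 78.8 ± 22.8 CPM in PAX6+, 942 ± 78.6 CPM in TBR2+ and 42.8 ± 24.5 CPM in PAX6-TBR2- cells, Neurog2 at 116 ± 22.4 CPM in PAX6+, 297 ± 46 CPM in TBR2+ and 42 ± 16.4 CPM in PAX6-TBR2- cells, and Mfng at 23.9 ± 6.26 CPM in PAX6+, 197 ± 14.9 CPM in TBR2+ and 12.2 ± 4.38 CPM in PAX6-TBR2- cells. These genes were highest in TBR2+ cells, and so was Slc17a6, at 1.96 ± 1.54 CPM in PAX6+, 326 ± 20 CPM in TBR2+ and 40.1 ± 4.44 CPM in PAX6-TBR2- cells. Neurod1 peaked there too, at 1.43 ± 0.595 CPM in PAX6+, 361 ± 39.1 CPM in TBR2+ and 37.1 ± 5.51 CPM in PAX6-TBR2- cells, and Rbfox3 stood at 3.52 ± 2.20 CPM in PAX6+, 399.7 ± 43.2 CPM in TBR2+ and 132 ± 17.8 CPM in PAX6-TBR2- cells.

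Insm1 stayed high on both sides of the second step, at 59.5 ± 7.58 CPM in PAX6+, 187 ± 30.4 CPM in TBR2+ and 146 ± 19.4 CPM in PAX6-TBR2- cells. Neurod2 had 12.9 ± 4.72 CPM in PAX6+, 1105 ± 201 CPM in TBR2+ and 991 ± 131 CPM in PAX6-TBR2- cells, Neurod6 had 7.86 ± 1.96 CPM in PAX6+, 1139 ± 149.5 CPM in TBR2+ and 1154 ± 118 CPM in PAX6-TBR2- cells, and for both the ranges of TBR2+ and PAX6-TBR2- libraries overlapped. Tbr1, the T-box factor of deep-layer neurons, was at 7.87 ± 5.76 CPM in PAX6+, 423 ± 58 CPM in TBR2+ and 616 ± 175 CPM in PAX6-TBR2- cells, and the ranges of its TBR2+ and PAX6-TBR2- libraries overlapped as well. The levels across these 3 populations are a description, with no test.

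**Figure D3:**
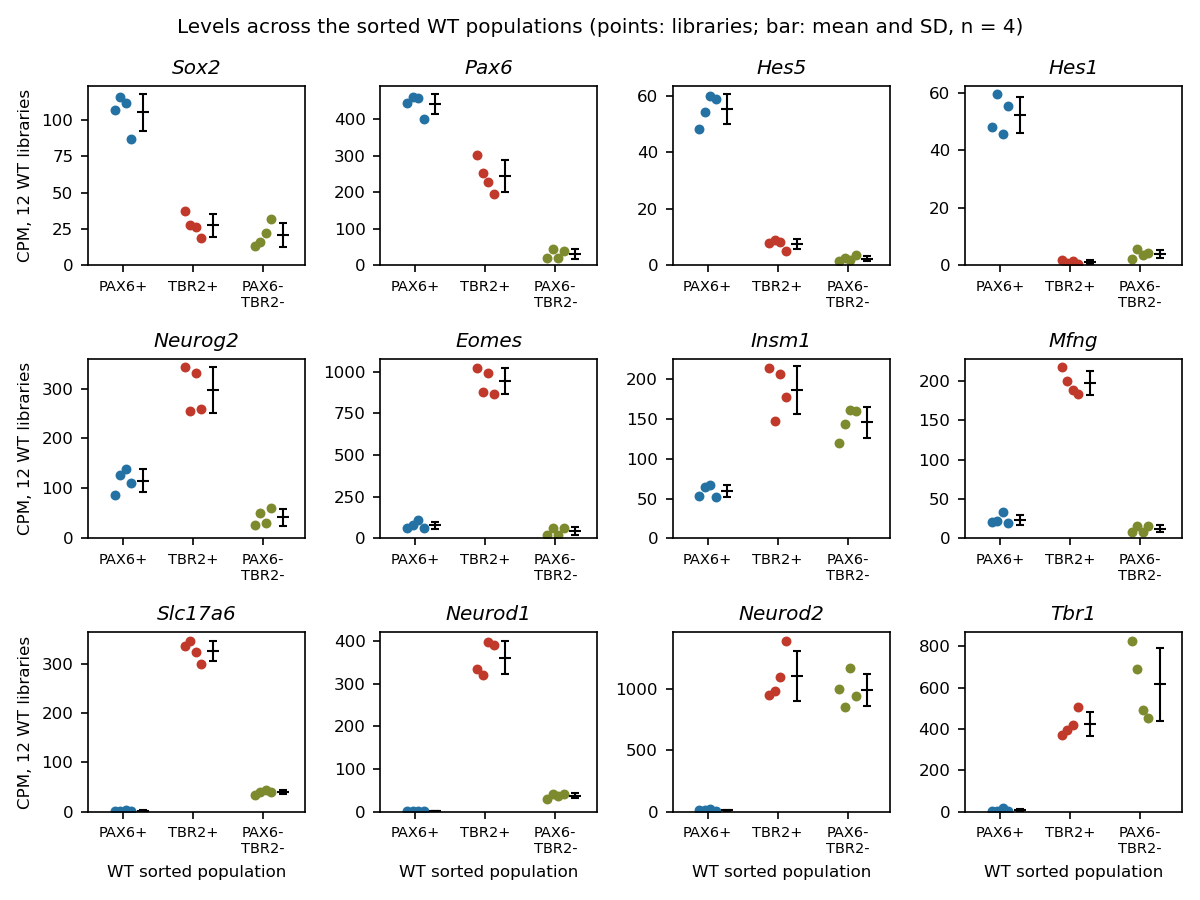
CPM on a scale set over 12 WT libraries for 12 genes in PAX6+, TBR2+ and PAX6-TBR2- cells; points are libraries and the black bar is the mean with its SD (n = 4 per population). Sox2, Pax6, Hes5 and Hes1 are highest in PAX6+ cells, Neurog2, Eomes, Mfng, Slc17a6 and Neurod1 in TBR2+ cells, and Neurod2 and Tbr1 overlap between TBR2+ and PAX6-TBR2- cells.

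Neuronal genes were much higher in TBR2+ than in PAX6+ cells. Which of the sorted TBR2+ cells held this RNA cannot be told from bulk samples. All 19 pan-neuronal genes tested were higher (median 2.98), and their summed level was 7052, 7337, 8219 and 8865 CPM in TBR2+ libraries, against 520.1, 417, 518 and 478 CPM in PAX6+ libraries. Neurod2 had 995, 1037, 1154 and 1448 CPM in TBR2+ cells, against 10.1, 15.7, 19.1 and 8.63 CPM in PAX6+ cells (log2 fold change 6.41, SE 0.22, adjusted p = 1.78e-13). Of 15 neuronal bHLH and Myt1 factors tested, 12 were higher and 3 lower, with a median of 4.84. Id1 (-3.34) and Id3 (-4.72), which encode inhibitors of bHLH factors, were among the lower ones.

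Layer identity genes were mixed. Of 12 deep-layer genes tested, 7 were higher and 3 lower (median 1.10), and of 13 upper-layer genes 9 were higher and 2 lower (median 0.95). Tbr1 had 390, 417, 441 and 525 CPM in TBR2+ cells, against 5.72, 4.10, 17 and 5.75 CPM in PAX6+ cells (5.72, SE 0.31), and Bcl11b, the gene of the subcerebral factor CTIP2, averaged 253 ± 63.9 against 8.44 ± 1.17 CPM (4.89, SE 0.18). On the upper-layer side, Unc5d, a netrin receptor of migrating upper-layer neurons, averaged 498 ± 71.3 against 9.33 ± 2.98 CPM (5.74, SE 0.20), and the transcription factor genes Pou3f1 and Bhlhe22 rose by 3.76 and 4.00. Genes of both layers thus rose in the same sorted population. Lower in TBR2+ cells were Nectin3, an adhesion gene (-2.78), the docking protein gene Dok5 (-1.24), the nuclear receptor gene Nr4a2 (-1.72), Lmo3 (-0.92) and Nfe2l3 (-0.84), whose call was lost in 9 of 20 alternative settings.

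Genes of axon guidance, migration and neuronal RNA processing rose with them. Of 23 axon guidance genes 18 were higher and 2 lower, led by Plxna4 (729 against 14.2 CPM; 5.66), the ephrin receptor gene Epha3 (443 against 9.55 CPM; 5.51), the semaphorin co-receptor gene Nrp1 (201 against 4.83 CPM; 5.37) and the Slit receptor gene Robo2 (702 against 20.4 CPM; 5.09). The values in parentheses are TBR2+ against PAX6+ means and the log2 fold change. Sema5a (-1.01) and Slit2 (-0.45) fell.

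Among 21 migration genes 12 were higher and 4 lower. Nrp2, a second semaphorin co-receptor gene, rose by 5.82 on the log2 scale (266 against 4.56 CPM), Cdk5r1, the activator of CDK5, by 4.59, and the adhesion gene Cntn2 by 4.52. Among the lower ones, Dab1, the adaptor of Reelin signalling, had 13.7, 18.8, 18.9 and 41.5 CPM in TBR2+ cells, against 193, 179, 192 and 174 CPM in PAX6+ cells (-2.99, SE 0.22), and the Reelin receptor gene Vldlr fell by 1.70. The other Reelin receptor gene, Lrp8, rose (2.54, SE 0.09; named after its value was seen). Of 22 RNA-binding protein genes 14 were higher and 3 lower. Srrm4, a regulator of neural microexons, had 1320, 1456, 1368 and 1345 CPM in TBR2+ cells, against 48.6, 41.6, 46.6 and 34.1 CPM in PAX6+ cells (5.001, SE 0.12), and Celf3, Elavl2 and Rbfox1 rose by 4.33, 3.40 and 4.94. Qk, which encodes Quaking, fell (-2.08), and Ptbp1, the repressor of neuronal exons, fell by only 0.53.

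The 5 BAF chromatin subunits of neurons all rose, among them Actl6b (17.9 against 0.520 CPM; 5.05) and Bcl7a (1.94). Of the 5 progenitor subunits, Phf10 (-0.90) and Actl6a (-0.58) fell, Dpf2 rose (0.46), and 2 were not called. Cortical patterning factors were mostly higher, 12 of 16, with 2 lower. Lhx9 (2.74), Nr2f2 (2.37), Bcl11a (1.99) and Emx1 (1.54, or 0.64 with the length and GC trend removed) rose, and Sp8 fell (-1.36). Emx2 was called lower (-0.23), but the call was lost in 16 of 21 alternative settings.

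**Figure D4:**
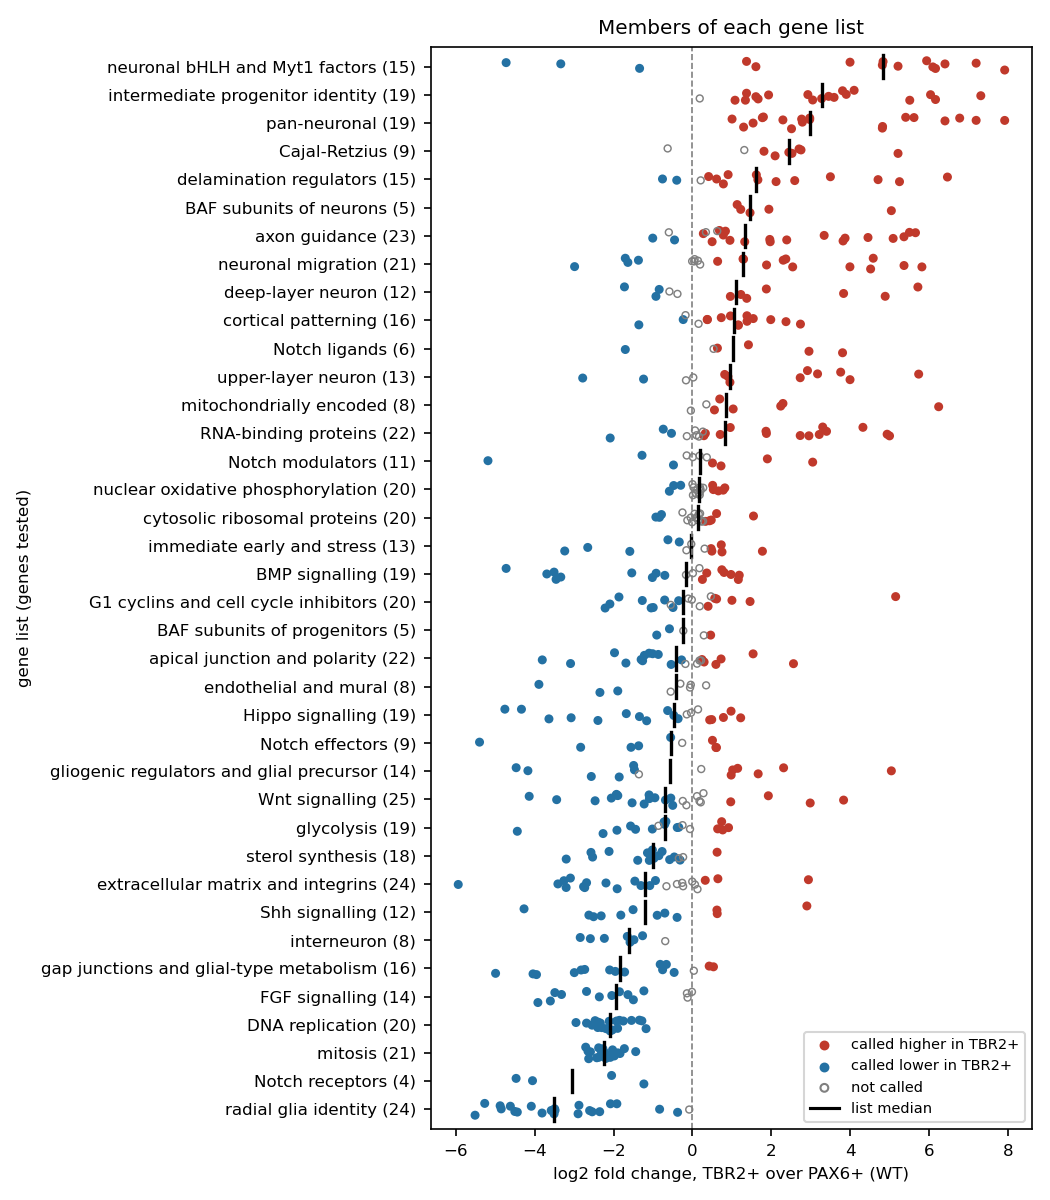
Log2 fold change, TBR2+ over PAX6+, of every tested member of each gene list with 4 or more genes tested; red points are called higher, blue points called lower, open points not called, the black bar is the list median and the dashed line the median of all genes. Radial glia, Notch receptor, mitosis and DNA replication genes have medians left of 0, and neuronal bHLH, intermediate progenitor and pan-neuronal genes to the right.

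Genes of DNA replication and mitosis fell without exception among those listed. All 20 DNA replication genes were lower (median -2.10) and so were all 21 mitosis genes (median -2.24). Summed mitosis transcripts were 1645, 1285, 1498 and 680 CPM in TBR2+ libraries, against 5859, 6357, 6842 and 5871 CPM in PAX6+ libraries. The groups were far apart, but the TBR2+ libraries differed among themselves by 2.42 times, against 1.17 times in PAX6+ libraries. TBR2+ replicate 4 had the lowest mitosis and replication sums and the highest pan-neuronal sum of its group. Without it the medians were -1.98 for replication and -2.05 for mitosis.

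Ccnb1, the mitotic cyclin B1, had 10.01, 6.27, 8.60 and 3.62 CPM in TBR2+ cells, against 39.8, 53.3, 47.8 and 45.3 CPM in PAX6+ cells (log2 fold change -2.71, SE 0.21, adjusted p = 3.53e-09). Mcm3, a subunit of the replicative helicase, had 22.3, 15.7, 19.7 and 11.2 CPM in TBR2+ cells, against 136, 102, 148 and 148 CPM in PAX6+ cells (-2.95, SE 0.18). Cell cycle transcripts remained present in TBR2+ cells at a reduced level. Among G1 cyclins and inhibitors, 6 of 20 were higher and 9 lower. Cdkn1c, the gene of the cell cycle inhibitor p57, had 85.1, 94.9, 56.5 and 99.8 CPM in TBR2+ cells, against 1.75, 3.24, 1.98 and 2.34 CPM in PAX6+ cells (log2 fold change 5.16, SE 0.21, adjusted p = 1.22e-12). It had the largest rise of this list, and Cdkn1b (p27) rose by 1.00 and Ccng2 by 1.46. Ccnd1, cyclin D1, fell (-1.27), as did Ccne1 (-1.86), the retinoblastoma relative Rbl1 (-2.21) and the inhibitor gene Cdkn2c (-2.09).

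FGF pathway genes were lower or not called. In this list 11 of 14 tested genes were lower and 0 higher (median -1.95). Fgfr2, an FGF receptor, had 19.7, 19.9, 21.5 and 16.4 CPM in TBR2+ cells, against 210.2, 233, 264 and 233 CPM in PAX6+ cells (log2 fold change -3.60, SE 0.12, adjusted p = 1.04e-13). The ETS factors that FGF induces fell too, Etv5 by 3.49 (5.96 against 66.8 CPM) and Etv1 by 3.32 on the log2 scale, and so did the feedback inhibitor gene Spry4 (0.170 against 2.82 CPM; -3.92, or -5.27 without TBR2+ replicate 1). Fgfr2 spans other genes on the opposite strand, whose reads may be mixed with its own.

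In the Wnt list 15 of 25 were lower and 4 higher, and the ligands were split. Wnt7a had 3.71, 2.09, 3.52 and 2.59 CPM in TBR2+ cells, against 48.6, 48.6, 62.2 and 51 CPM in PAX6+ cells (-4.14, SE 0.18), whereas its close relative Wnt7b had 50.9, 68.3, 70.3 and 96 CPM in TBR2+ cells, against 3.23, 5.40, 6.13 and 4.90 CPM in PAX6+ cells (3.84, SE 0.20). For each gene the groups were far apart, in opposite directions. Wnt5a rose (2.99), as did the receptor gene Fzd1 (0.97) and the feedback gene Nkd1 (1.93). The transcription factor gene Tcf7l1 (-3.44), Dkk3 (-2.47) and Znrf3, whose product removes Frizzled receptors (-2.06), fell.

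Of 12 Shh pathway genes 9 were lower and 3 higher. Gas1, a Shh co-receptor, had 12.6, 5.75, 9.96 and 5.52 CPM in TBR2+ cells, against 149.8, 164, 164 and 177 CPM in PAX6+ cells (-4.27, SE 0.19), and Gli3, Cdon and the target and receptor gene Ptch1 fell by 2.63, 2.51 and 2.31. Small rises were those of Sufu (0.63) and Gpr161 (0.62). In the BMP list 9 of 19 were lower and 7 higher, near the shares of all genes. Its Id genes were not alike: Id3 (-4.72), Id4 (-3.51) and Id1 (-3.34) fell, and Id2 rose (1.19; 58.9 against 25.8 CPM). Bmpr1b (-3.69) and the BMP antagonist gene Nog (-3.46) fell, whereas the antagonist gene Chrd rose (1.17, or 0.48 and not called without TBR2+ replicate 2).

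Of 19 Hippo genes 11 were lower and 5 higher. The coactivator gene Wwtr1 (TAZ) fell (-3.64), as did the known YAP/TAZ targets Ccn1 (6.02 against 164 CPM; -4.76), Ccn2 (-4.34, or -5.11 without TBR2+ replicate 3) and Ajuba (-3.08). Dchs1, a giant protocadherin that binds FAT4, rose (409.8 against 175 CPM; 1.23, or 0.62 with the length and GC trend removed), with Amot (0.98), Vgll4 (0.79) and Stk3 (0.49).

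Adhesion genes did not all move one way. Of 22 apical junction and polarity genes 12 were lower and 6 higher. Plekha7, an adherens junction component, had 8.72, 7.84, 5.47 and 5 CPM in TBR2+ cells, against 90.2, 85.1, 112 and 94.4 CPM in PAX6+ cells (log2 fold change -3.81, SE 0.16, adjusted p = 2.22e-12). Crb2, which sets the apical domain, fell (-3.09), with its partner gene Mpp5 (PALS1; -1.98) and the cadherin gene Fat1 (-1.69). Ctnna2, the neuronal alpha-catenin, rose (103 against 17.3 CPM; 2.56), as did Ezr (1.54), Pard3 (0.73) and Pard6g (0.60).

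Of 15 delamination regulators tested, 12 were higher and 2 lower (median 1.62). Scrt2, a Scratch family repressor linked to detachment from the apical surface, had 1062, 989.5, 1352 and 1365 CPM in TBR2+ cells, against 17.9, 8.79, 18.4 and 8.20 CPM in PAX6+ cells (log2 fold change 6.47, SE 0.24, adjusted p = 4.14e-13). Its relative Scrt1 rose by 5.25, the small GTPase gene Rnd2 by 4.71, and Lzts1, which promotes delamination, by 3.50 (260.2 against 22.9 CPM). Zeb1 (-0.76) and Sema3a (-0.40) were lower, but Sema3a was not called without TBR2+ replicate 2 or without TBR2+ replicate 4 (-0.32 each). Of 24 matrix and integrin genes 14 were lower and 3 higher: besides Tnc, Sparc (-3.41), Col18a1 (-3.26) and Nid2 (-3.20) fell, and Lamb1 (41.6 against 5.38 CPM; 2.94) and the proteoglycan gene Ncan (0.65) rose.

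Metabolic genes of the glial type were lower in TBR2+ cells. Of 16 gap junction and glial-type metabolism genes 13 were lower and 2 higher, of 18 sterol synthesis genes 15 were lower and 1 higher, and of 19 glycolysis genes 12 were lower and 4 higher. Psat1, an enzyme of serine synthesis, had 23.9, 23.3, 23.4 and 20.3 CPM in TBR2+ cells, against 349, 307, 365 and 391 CPM in PAX6+ cells (log2 fold change -3.95, SE 0.11, adjusted p = 3.07e-14). Mlc1, a membrane protein of astrocytes, fell by 4.99 (5.96 without TBR2+ replicate 1), Acsbg1 (acyl-CoA synthesis) by 4.04 and Cpt1a, which carries fatty acids into mitochondria, by 3.00. Aldoc, the aldolase typical of astroglia, had 13.1, 7.32, 10.6 and 4.48 CPM in TBR2+ cells, against 208, 163, 218 and 184 CPM in PAX6+ cells (-4.44, SE 0.21).

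Ldha and Ldhb, the lactate dehydrogenase subunits, moved in opposite directions, Ldha at 36 against 174 CPM (-2.27, SE 0.14) and Ldhb at 84 against 44.5 CPM (0.92, SE 0.11), as TBR2+ against PAX6+ means. The sterol enzyme genes Idi1 (-2.57) and Msmo1 (-2.11) fell, and Mvd was called higher (0.63), but not with the length and GC trend removed (0.21). Of 20 nuclear oxidative phosphorylation genes 5 were higher, 3 lower and 12 not called, and no member passed a fold of 2. Cytosolic ribosomal protein genes had the same counts, with Rpl13 the furthest from 0 (1.55). Among mitochondrially encoded protein genes 6 of 8 tested were higher and 0 lower, beside the larger mitochondrial share of the TBR2+ libraries given above; the part of that share in this result was not tested.

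Gliogenic factors were divided, with 6 of 14 tested higher and 6 lower. The nuclear factor I genes Nfix (2941 against 925 CPM; 1.67) and Nfia (2350 against 1060 CPM; 1.15) rose, whereas Sox8 (-4.47), Aldh1l1 (-4.17), Egfr (-2.56) and the cytokine receptor gene Il6st (-1.86) fell. Slc1a2, a glutamate transporter, rose (2.31), and so did Luzp2 (5.05, or 5.84 without PAX6+ replicate 3). Immediate early and stress genes were balanced, 5 of 13 higher and 5 lower. Jun fell (44.8 against 282 CPM; -2.65), Atf3 (-3.24) and Egr2 (-1.59), low in both populations, fell too, and Jund (1.78, or 0.86 with the length and GC trend removed), Fosl2 (0.75, but not called without TBR2+ replicate 4, at 0.43) and Hspa8 (0.73) rose.

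Markers of other cell types were low, with 1 exception. Summed microglial markers ran over 2.96 to 5.67 CPM in TBR2+ and 1.19 to 2.38 CPM in PAX6+ libraries, choroid plexus markers over 0.195 to 2.90 CPM in TBR2+ and 0.106 to 1.66 CPM in PAX6+ libraries and meningeal markers over 0.345 to 1.29 CPM in TBR2+ and 3.82 to 5.08 CPM in PAX6+ libraries. Endothelial and mural markers ran over 11.8 to 31.5 CPM in TBR2+ and 19.5 to 56.3 CPM in PAX6+ libraries, with 3 of 8 tested lower, namely Slco1c1 (-3.89, or -3.26 without PAX6+ replicate 3), Pdgfrb (-2.35) and Cspg4 (-1.89). Erythroid markers ran over 12.9 to 22.4 CPM in TBR2+ and 15.6 to 26.5 CPM in PAX6+ libraries. Interneuron markers ran over 31.6 to 46.6 CPM in TBR2+ and 98.8 to 146 CPM in PAX6+ libraries. Of these 8 tested genes 7 were lower, among them Gad1 (0.340 against 2.62 CPM; -2.84), which encodes the enzyme that makes GABA.

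Cajal-Retzius markers, a set of 10 genes of the Reelin-secreting neurons of the cortical surface, were the exception. They summed to 369, 813, 268 and 534 CPM in TBR2+ libraries, against 44.5, 52, 360 and 64.9 CPM in PAX6+ libraries, so the groups overlapped and PAX6+ replicate 3 stood apart from its group. Of 9 tested, 7 were higher and 0 lower, and the median was 2.45, or 8 and 3.09 without PAX6+ replicate 3 and 5 and 1.78 without TBR2+ replicate 2, the library with the highest sum. Reln itself, named after its values were seen, had 149.5, 475, 103 and 255 CPM in TBR2+ cells, against 29.7, 35.4, 278 and 47.7 CPM in PAX6+ cells and was not called (1.32, SE 0.57, adjusted p = 0.0527). Ebf3 had 35.8, 50.7, 34.4 and 33.6 CPM in TBR2+ cells, against 2.4, 3.02, 13.5 and 2.88 CPM in PAX6+ cells (2.76, SE 0.38), and Nhlh2, which is also a general neuronal bHLH gene, had 113, 128, 95.2 and 146 CPM in TBR2+ cells, against 0.831, 1.51, 7.91 and 1.71 CPM in PAX6+ cells (5.22, SE 0.38). Without PAX6+ replicate 3 the log2 fold changes were 3.79 for Ebf3, 6.46 for Nhlh2, 6.43 for Tbr1 and 5.12 for Cntn2. Every marker of the list had reads in both populations, and TBR2+ replicates 2 and 4 had the highest sums. Like most of these markers, pan-neuronal and guidance sums and Tbr1 were higher in TBR2+ than in PAX6+ cells, but the libraries within a population agreed only in part. The guidance sum was also highest in PAX6+ replicate 3 (2603 CPM) and TBR2+ replicate 2 (7541 CPM). The pan-neuronal sum was highest in PAX6+ replicate 1 (520.1 CPM, against 518 CPM in replicate 3) and TBR2+ replicate 4 (8865 CPM). The part of Cajal-Retzius markers in those results was not tested.

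The same step in the KO libraries, which share no library with the WT comparison, was fitted on its own. Of 13707 genes tested there, 3866 were higher (28.2%) and 3887 lower (28.4%) in KO TBR2+ than in KO PAX6+ cells, or 56.6% in either direction. Genes higher in both genotypes numbered 3415, which is 81.3% of those higher in WT and 88.3% of those higher in KO, and 8 genes higher in WT were lower in KO. Genes lower in both numbered 3424, or 78.4% of the WT and 88.1% of the KO genes, with 6 opposite. Library prefixes separate the populations in the KO libraries as well, so this repeat does not separate population from library preparation.

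Radial glia genes in KO cells had 22 of 24 lower (median -3.37), intermediate progenitor genes 18 of 19 higher (2.84), and mitosis genes 21 of 21 lower (-2.62). Medians of other lists stood further apart, at 4.86 in KO and 2.98 in WT for pan-neuronal, 3.97 in KO and 2.45 in WT for Cajal-Retzius, 2.24 in KO and 1.03 in WT for Notch ligand, 0.58 in KO and 1.28 in WT for migration and 0.66 in KO and -0.57 in WT for gliogenic genes, and these differences of medians were not tested. The gliogenic medians are not over the same genes, with 12 tested in KO and 14 in WT. Aldh1l1 (-4.17 in WT) is among those not tested in KO. Hes1 had a log2 fold change of -5.95 in KO and -5.40 in WT cells, Lfng -4.86 and -5.19, Neurod1 7.80 and 7.92, and Cdkn1c 4.92 and 5.16. In a test of the difference itself, 89 of 14548 genes passed. Among the named genes these were Epha3 (3.95 in KO and 5.51 in WT), Kif26b (4.81 and 6.04), Rnd2 (3.81 and 4.71), Cntn2 (6.33 and 4.52) and Nrarp (-1.20 and -0.26). All 5 kept the sign of the step in both genotypes.

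**Figure D5:**
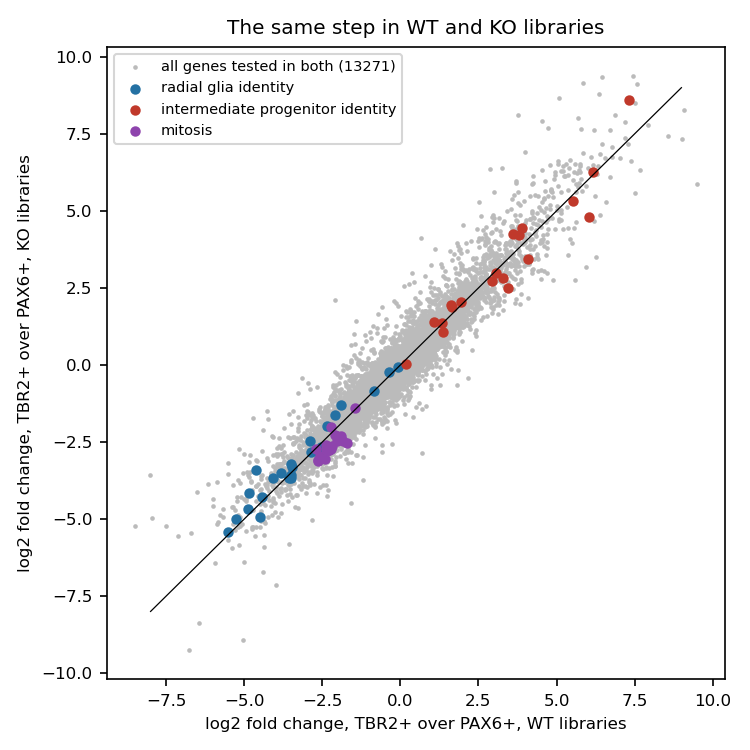
Log2 fold change, TBR2+ over PAX6+, of 13271 genes tested in both genotypes, in WT libraries (x axis) and KO libraries (y axis), with radial glia identity, intermediate progenitor identity and mitosis genes in colour and the line of equal change in black. The coloured lists lie close to the line, with radial glia and mitosis genes at the lower left and intermediate progenitor genes at the upper right.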

How the data were processed

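The authors deposited raw gene counts of 24 libraries. The 2 lane columns of each library were added up. The authors' deposited normalized signal values were used only as an alternative. Per the labels' protocols, RNA was extracted with a RecoverAll kit, amplified by single primer isothermal amplification (Ovation RNA-seq V2) and made into libraries with Ovation Ultralow V2, without molecular identifiers. Tools listed in the submitters' processing notes are featureCounts, STAR, cutadapt, FastQC and DESeq2, with build mm10, while versions, annotation and strandedness are not given there. Replicate libraries differed by more than sampling noise (chi-square per degree of freedom 6.63 to 16.5) and lanes did not (0.977 to 1.01).

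WT TBR2+ was set against WT PAX6+ in edgeR 4.0.16 (R 4.3.3): filterByExpr, TMM, glmQLFit and glmQLFTest, two-sided, Benjamini-Hochberg over 13550 genes, with a call at an adjusted p under 0.05. The interaction with genotype was fitted over both genotypes and was added after the data were seen. Alternatives were DESeq2 1.42.0, limma 3.58.1, other scalings, filters, a replicate block, and each library left out. Of the 39017 genes, 37693 matched GENCODE M21. Genes were named as the sorting antigens, the 15 largest called changes per direction (no overlap, mean of at least 10 CPM), up to 4 called members per direction of each list, and Notch and lineage genes. The 42 lists and this rule were chosen with earlier results of these data known. Some genes that the rule names are not reported here. The fit was tested on simulated data with known changes in far fewer genes than were called here. That test therefore does not cover changes as widespread as these.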

Additional observations from a re-analysis of the deposited data

Results flagged for a closer look

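Of 502 groups of 4 values examined, among them the CPM of each reported named gene in each population, 28 held a library far from the other 3, and chance gives about 1 in 20. PAX6+ replicate 3 was the high library in 9 of these, mostly for neuronal or Cajal-Retzius genes: Tbr1 at 17, Cntn2 at 26, Ebf3 at 13.5, Ebf2 at 2.31, Nhlh2 at 7.91, Sstr2 at 6.32, Dll4 at 0.988, and Plxna4os2 at 0.922 CPM. It was also high for the Shh receptor gene Ptch1, at 50.9 CPM. The Cajal-Retzius sum of this library, 360 CPM, was above the other PAX6+ libraries, which ran from 44.5 to 64.9 CPM.

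In PAX6+ replicate 4, Ldha (214 CPM), Msmo1 (71.3 CPM) and Rbl1 (92.1 CPM) were high, and Bcl11b (6.71 CPM), Dpf2 (54 CPM) and Tcf7l1 (59.4 CPM) low. In PAX6+ replicate 1, Gpr161 (10.4 CPM) and Dlx6os1 (7.66 CPM) were high. In PAX6+ replicate 2, Ndufa2 was low (19.1 CPM), and the single read of Gjd2 over the PAX6+ libraries (0.0720 CPM) fell there. In TBR2+ replicate 4, Prdm8 (269.7 CPM), Fosl2 (25.2 CPM) and Mvd (15.2 CPM) were high, and Clvs1 (106 CPM) and Psat1 (20.3 CPM) low. In the other TBR2+ libraries, Bcl11a was low (1034 CPM) and Col11a1 high (58.6 CPM) in replicate 1, Ebf3 was high in replicate 2 (50.7 CPM), and Lair1 was at 0 CPM in replicate 3.

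The TBR2+ over PAX6+ log2 fold change differed between KO and WT cells, by the interaction test, for Epha3 (KO minus WT -1.57, SE 0.20, adjusted p = 0.000172 in edgeR), Nrarp (-0.95, adjusted p = 0.00764), Kif26b (-1.24, adjusted p = 0.0119), Rnd2 (-0.92, adjusted p = 0.0401) and Cntn2 (1.79, adjusted p = 0.0471).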

How the results depend on the processing

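The count of 8570 called genes was within 1.5 times of its value in all alternatives but 1: tested against a fold of 1.5 with glmTreat it was 4685. It was 8467 in DESeq2, 8290 with the replicate block, 9591 without a filter on low counts, and 8080 to 8487 with 1 library left out. The totals do not show which genes were kept. DESeq2 kept 98.4% of the 8570 genes, and the fits with 1 library left out kept 91.7% to 94.4%. With the length and GC trend removed 8609 genes were called, and 7513 of the 8570 (87.7%) were kept. Where at least 10 CPM in 4 libraries was required, 6302 (73.5%) were kept. The 4218 genes called with a fold of at least 2 became 2549 where at least 10 CPM in 4 libraries was required, since fewer genes were tested, and 4227 to 4488 with 1 library left out. The KO count of 7753 was 8122 with the replicate block and 7194 to 7680 with 1 library left out. Same-numbered WT libraries did not deviate together (correlations -0.046 to 0.047 over genes), so the numbers are not taken as pairs in WT. In KO the correlations of same-numbered libraries were all positive (0.061 to 0.257), and those of differently numbered libraries ran from -0.21 to 0.16. The KO fit and the interaction test were also run without pairs. Of the values of named genes under all alternatives, 5188 kept their side of the threshold and 116 lost it, 47 of these under glmTreat; 8 gained it. Ier2 (0.49) reversed to -0.052 with the length and GC trend removed and to -0.063 with the replicate block as well; the cause was not tested. The same trend removal moved Notch1 (-2.64), Notch4 (-1.92), Hes5 (-3.47), Scrt1 (4.52), Scrt2 (5.84), Pou3f1 (3.10), Col18a1 (-3.88) and Cspg4 (-2.54) by over 1.5 times, and turned Jag2, which was not called, to -0.14. Beside glmTreat, calls were lost in at least 1 setting by Emx2, Ndufs1, Fosb, Nfe2l3, Cdkn2d, Pfkp, Ier2, Col11a1, Fosl2, Mvd, Hk1, Sema3a, Chrd and Uqcrb.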

Other observations

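Reads were spread unevenly over the mitochondrial messenger RNAs. mt-Nd5 averaged 3240 CPM in TBR2+ and 1582 CPM in PAX6+ cells, whereas mt-Co2, mt-Co3, mt-Atp6, mt-Atp8 and mt-Nd4l each held at most 2 reads over the libraries of either population. mt-Nd5 and mt-Nd6 overlap on opposite strands. These values limit what the mitochondrially encoded list shows.

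Other results of these libraries stood outside the lists' names. Tmem119, listed as a microglial marker, held 73 reads over the TBR2+ libraries and 2 over the PAX6+ libraries, while Csf1r held 17 and 26 reads and C1qa 0 in both. Tested genes with another tested gene on the opposite strand were about as common among genes that rose at least 2-fold (24%) and fell at least 2-fold (26%) as among all tested genes with an annotation (27.9%).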
